A study of Mus musculus with 2 samples.

Results

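Immunoglobulin kappa variable (Igkv) genes encode the front part of the antibody kappa light chain, and the usage of these genes was described in mouse spleen cells by single-cell RNA sequencing. The members were all gene symbols that start with Igkv and hold at least 1 UMI (unique molecular identifier, the count of 1 captured transcript) in the deposited table. There were 105 of them, out of 160 Igkv symbols and 31017 symbols in all. The labels name 1 WAS-KO sample (knockout of the Wiskott-Aldrich syndrome gene) and 1 WT sample, both of spleen cells from mice aged 6 to 8 weeks, and the tag for the mouse model reads Wiskott-Aldrich Syndrome on both. The counts came as 1 table of 7524 barcodes in which nothing ties a barcode to either sample, so no comparison of genotypes was made and every value below is of the pooled cells. Whether the table holds cells of both samples was not established, and whether animals were pooled is not stated.

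Each developing B cell cuts and joins its DNA so that 1 Igkv gene comes to lie beside a joining segment upstream of the constant gene Igkc. A cell that fails to make a working kappa chain can rearrange again or turn to a lambda light chain, and as a rule a mature B cell expresses a single light chain. Follicular B cells are the recirculating majority of splenic B cells, transitional cells have newly arrived from the bone marrow, marginal zone and B-1 cells give rapid antibody responses, and plasma cells secrete antibody and carry very large amounts of its mRNA.

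All 160 symbols were annotated in GENCODE vM21 (build GRCm38), on chromosome 6, over 3.15 Mb between chr6:67555497-70704177. The constant gene Igkc lies beyond them at chr6:70726435-70726966 on the plus strand, 22.3 kb from the nearest Igkv gene and 3170 kb from the farthest. On the plus strand, like Igkc, lie 75 of the genes, and 85 lie on the minus strand. The annotation calls 100 of them variable genes, of which 87 were detected, and 60 of them variable pseudogenes, of which 18 were detected.

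The 3′ ends of the coding sequences show part of what tells these genes apart, because this end holds the germline part of the third antigen-contacting loop. They are printed for the 6 genes that each led 3 or more plasma cells, for the pair Igkv12-46 and Igkv12-44, relatives that ranked 2 and 3 by UMIs over all kept barcodes, and for Igkv14-126, known from B-1 cell antibodies. Sequences are GENCODE vM21 transcripts read 5′ to 3′ in the direction of the gene, 41 bases each. Capitals mark the codon of the conserved cysteine before the loop, and 23 bases follow it.
Igkv1-135: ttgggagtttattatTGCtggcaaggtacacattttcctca
Igkv6-15: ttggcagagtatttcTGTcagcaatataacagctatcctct
Igkv10-96: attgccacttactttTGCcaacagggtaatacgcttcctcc
Igkv6-17: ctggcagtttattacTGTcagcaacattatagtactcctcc
Igkv1-110: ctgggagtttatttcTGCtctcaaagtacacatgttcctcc
Igkv14-111: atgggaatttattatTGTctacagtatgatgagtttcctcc
Igkv12-46: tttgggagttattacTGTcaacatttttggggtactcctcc
Igkv12-44: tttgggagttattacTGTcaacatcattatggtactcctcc
Igkv14-126: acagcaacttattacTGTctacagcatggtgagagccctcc
Their genomic positions are chr6:67609713-67610508 for Igkv1-135 (plus strand), chr6:70406469-70406992 for Igkv6-15 (minus), chr6:68631963-68632442 for Igkv10-96 (minus), chr6:70371439-70371993 for Igkv6-17 (plus), chr6:68270485-68271267 for Igkv1-110 (plus) and chr6:68256389-68256869 for Igkv14-111 (plus). Igkv12-46 lies at chr6:69764523-69765022 (minus), Igkv12-44 at chr6:69814631-69815154 (minus) and Igkv14-126 at chr6:67896172-67896642 (plus).

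Some members are close copies of each other, and the program that assigned reads to them is not given in the sources used here. Of the 103 genes with a UMI in the kept barcodes, 99 had another Igkv symbol of the table in their family, with or without UMIs. The median identity of a gene to its closest relative was 91.1% over the annotated transcript, 14 genes reached 95% and none reached 98%. The counts of such genes are uncertain where reads fall on shared stretches. Igkv12-46 and Igkv12-44 differed at 16 of 348 aligned coding positions, gaps included (95.4% identity, and 90.2% over the whole transcript). Their last 298 coding bases, from the first difference on, are shown because plasma and follicular cells differed in their UMIs of the pair. Capitals mark the bases that differ in this alignment, including a base that faces a gap in the other gene. Each line therefore has 15 capitals, and near the gaps they do not mark base-by-base differences between the printed lines.
Igkv12-46: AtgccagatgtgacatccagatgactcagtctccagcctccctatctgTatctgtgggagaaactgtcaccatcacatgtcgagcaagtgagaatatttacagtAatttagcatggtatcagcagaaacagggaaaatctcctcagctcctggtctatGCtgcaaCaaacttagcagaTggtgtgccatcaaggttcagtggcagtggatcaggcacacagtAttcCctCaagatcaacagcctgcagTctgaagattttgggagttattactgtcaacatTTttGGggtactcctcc
Igkv12-44: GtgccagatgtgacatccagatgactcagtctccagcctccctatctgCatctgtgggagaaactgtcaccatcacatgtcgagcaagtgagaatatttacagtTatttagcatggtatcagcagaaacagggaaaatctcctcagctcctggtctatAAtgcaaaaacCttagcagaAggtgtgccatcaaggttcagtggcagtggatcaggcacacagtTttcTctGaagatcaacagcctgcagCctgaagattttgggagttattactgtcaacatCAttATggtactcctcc
Igkv1-110 and Igkv1-117 differed at 10 of 359 coding positions (97.2% identity, and 97.5% over the whole transcript). They are shown because, at 1 UMI or more, Igkv1-110 led 3 plasma cells and 0 transitional cells, while Igkv1-117 led 0 plasma cells and 8 transitional cells. The last 296 bases are shown, from the first difference on, with the differences in capitals. Igkv1-117 lies at chr6:68121046-68121827 on the plus strand.
Igkv1-110: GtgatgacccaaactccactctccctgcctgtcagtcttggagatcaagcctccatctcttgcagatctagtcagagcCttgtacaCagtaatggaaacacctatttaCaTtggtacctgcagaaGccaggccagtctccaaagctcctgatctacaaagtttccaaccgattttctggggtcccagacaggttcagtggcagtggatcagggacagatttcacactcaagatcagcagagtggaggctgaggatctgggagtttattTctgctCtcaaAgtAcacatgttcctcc
Igkv1-117: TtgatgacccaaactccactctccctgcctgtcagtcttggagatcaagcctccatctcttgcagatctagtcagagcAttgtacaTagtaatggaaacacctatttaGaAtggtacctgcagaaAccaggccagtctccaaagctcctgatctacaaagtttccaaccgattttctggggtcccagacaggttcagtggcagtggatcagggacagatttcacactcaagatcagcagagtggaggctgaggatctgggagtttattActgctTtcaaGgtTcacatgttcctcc

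Barcodes were kept with at least 200 detected genes and at most 10% of UMIs from mitochondrial (mt-) genes, which left 6588 barcodes with a median of 5339 UMIs. B cells needed at least 3 UMIs over Cd79a, Cd79b and Ms4a1 (B cell receptor components and CD20) and at most 2 over 8 markers of other cell types. Plasma cells were gated by Jchain, the joining chain of secreted antibodies, at 10 UMIs and 0.1% of UMIs or more. B-1-like cells were gated by Bhlhe41, marginal zone cells by S1pr3, transitional cells by Cd93 and follicular cells by Fcer2a, each at 1 UMI or more. The gates held 68 plasma, 122 B-1-like, 49 marginal zone, 174 transitional and 1281 follicular cells, and the 2431 B cells in all included 625 with no subset marker and 180 that fitted no single gate. Markers that the gates did not use were highest in their own gate for 7 of 7 plasma genes, 5 of 6 B-1-like genes, 6 of 6 marginal zone genes, 3 of 4 transitional genes and 3 of 4 follicular genes. Cr2, the complement receptor of marginal zone cells, stood at 1397 CPM (UMIs per 1000000 UMIs of the gate) in marginal zone cells, against 330 CPM in follicular cells. The summed level of the 8 markers of other cell types was 269 CPM in plasma cells and 163 in follicular cells. It was between 111 and 155 in the B-1-like, marginal zone and transitional gates. B cells were limited to 2 UMIs of these markers by their gate, while the plasma gate set no such limit. These levels therefore do not compare the purity of plasma and B cells. The part of these markers in the results was not tested.

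Igkv transcripts marked B-lineage cells and were far more frequent in plasma cells than in any B cell gate. Of the 68 plasma cells, 62 held an Igkv UMI (91.2%, 95% exact binomial interval 81.8 to 96.7). Of the 122 B-1-like cells 53 did (43.4%, 34.5 to 52.7), of the 49 marginal zone cells 22 (44.9%, 30.7 to 59.8), of the 174 transitional cells 60 (34.5%, 27.5 to 42.1) and of the 1281 follicular cells 340 (26.5%, 24.1 to 29.1). The plasma gate stood apart from every other gate, and the intervals of the marginal zone, B-1-like and transitional gates overlapped each other.

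T cells, which make no antibody, were taken as the background. Whether their Igkv UMIs came from free RNA was not tested. Of 717 T cells, 11 held an Igkv UMI (1.53%, 0.768 to 2.73), as did 2 of 266 erythroid cells (0.752%) and 3 of 527 myeloid cells (0.569%). Median depth was 28745.5 UMIs in plasma, 6395 in B-1-like, 7870 in marginal zone, 5241.5 in transitional, 4946 in follicular and 6660 in T cells. With every cell thinned to 2000 UMIs, the share with an Igkv UMI was 73.3% in plasma, 18.0% in B-1-like, 15.3% in marginal zone, 15.1% in transitional and 12.3% in follicular cells, against 0.519% in T cells. Thinning left out 2 plasma, 1 B-1-like, 1 marginal zone, 0 transitional, 5 follicular and 12 T cells as too shallow. Thinning lowered the share in each of these gates. Cells are not replicates, and these intervals, like all those below, cover counting error only.

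**Figure D1:**
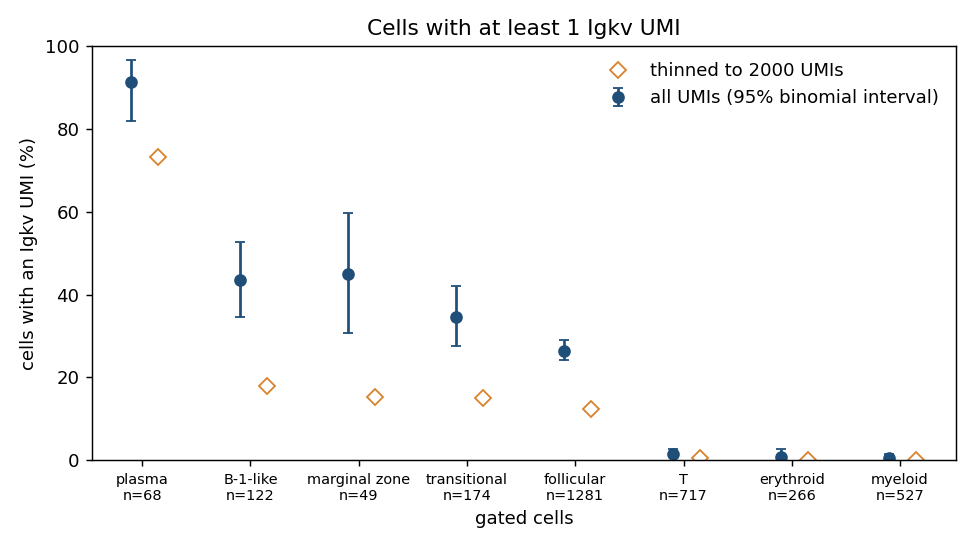
Share of cells with at least 1 Igkv UMI (y axis, %) in each gate (x axis, with the number of cells); filled points use all UMIs with 95% exact binomial intervals, open diamonds are the expected share after thinning each cell to 2000 UMIs. Plasma cells stood at 91.2%, the B cell gates between 26.5% and 44.9%, and T, erythroid and myeloid cells at 1.53% or less.

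By amount, the plasma gate held 2758 Igkv UMIs, against 80 in B-1-like, 28 in marginal zone, 83 in transitional and 462 in follicular cells. In CPM this was 1407 in plasma cells (1355 to 1461), 88.2 in B-1-like cells (70.0 to 110), 72.3 in marginal zone cells (48.1 to 105), 81.4 in transitional cells (64.8 to 101) and 67.7 in follicular cells (61.6 to 74.1). Intervals on UMIs treat each UMI as independent, which UMIs of the same cell are not. Of the 105 members, 31 had at least 20 UMIs over the plasma and follicular gates together, and each of these 31 was at least 2-fold higher in CPM in plasma cells, against 7.31% of the 9799 symbols tested in the same way. Most of these UMIs lay in the plasma gate, so a gene passed the minimum largely through its plasma UMIs and nothing is read from that count. For the B-1-like gate, 0 of 8 such genes were at least 2-fold higher than in follicular cells (background 3.98%) and 2 were at least 2-fold lower (background 5.06%). For the marginal zone gate the counts were 0 of 5 higher (background 5.76%) and 2 of 5 lower (background 14.3%). For the transitional gate they were 3 of 8 higher (background 3.02%) and 2 of 8 lower (background 4.3%). In these 3 gates each such gene held at most 12 UMIs, and some held 0. The interval of the ratio of UMI shares left out 1 for 1 of 8 genes in the transitional gate. It did so for 1 of 8 in the B-1-like gate and 0 of 5 in the marginal zone gate. Nothing is therefore read from these 2-fold counts.

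Set against the constant gene, the order of the gates changed. There were 4.83 Igkv UMIs per 1000 Igkc UMIs in plasma cells (4.66 to 5.02), 8.75 in B-1-like cells (6.94 to 10.9), 11.8 in marginal zone cells (7.82 to 17.0), 7.72 in transitional cells (6.15 to 9.57) and 6.72 in follicular cells (6.12 to 7.36). The plasma value lay below each of the B cell gates, and the T cell value of 4.99 (2.49 to 8.93) overlapped all of these gates. A 3′ library counts a message from its Igkc end, and few Igkc UMIs had an Igkv UMI beside them in any gate. The joining segments Igkj1 to Igkj5 held no UMI in any gate.

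Igkv genes were detected more often in cells with more kappa than lambda constant UMIs. Among plasma cells, 63 had more Igkc than Iglc1, Iglc2 and Iglc3 UMIs, and 98.4% of these held an Igkv UMI, while of the 5 plasma cells with more lambda none did. In the same order of kappa-high and lambda-high cells, the shares were 45.6% and 31.6% for B-1-like, 50% and 33.3% for marginal zone, 36.3% and 28.0% for transitional and 28.1% and 12.2% for follicular cells. The lambda-high shares rest on 6 of 19 B-1-like, 4 of 12 marginal zone, 7 of 25 transitional and 15 of 123 follicular cells. The differences in the smaller gates thus rest on few cells. Over all B cells, 52 of 307 lambda-high cells (16.9%) and 32.2% of the 2110 kappa-high cells held an Igkv UMI. Detection of an Igkv gene in a lambda-high cell was thus well above the T cell share of 1.53%. Igkc made up 95.6% of light-chain constant UMIs in plasma, 67.8% in B-1-like, 61.4% in marginal zone, 64.6% in transitional and 71.5% in follicular cells. By cells the gates were closer. Kappa exceeded lambda in 92.6% of plasma, 84.4% of B-1-like, 73.5% of marginal zone, 83.9% of transitional and 90.1% of follicular cells.

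Over all kept barcodes the 103 detected genes were used very unevenly. They held 4113 UMIs with a median of 10 per gene, 36 genes had 1 to 3 UMIs, 39 had at least 20, and the 10 highest carried 56.8% of the total. Igkv1-135 led with 557 UMIs (13.5%) in 67 cells, followed by Igkv12-46 with 463 UMIs (11.3%) in 41 cells. Next came Igkv12-44 with 239 UMIs in 63 cells, Igkv8-27 with 192 in 26, Igkv6-15 with 172 in 33, Igkv19-93 with 168 in 52, Igkv1-110 with 166 in 50, Igkv10-96 with 140 in 44, Igkv6-17 with 123 in 26 and Igkv17-127 with 115 in 42. The order by cells was not the order by UMIs, since Igkv12-46 held more UMIs than Igkv12-44 in fewer cells. Variable pseudogenes, which cannot encode a working chain, held 57 of the UMIs (1.39%).

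For the share of cells, a gene was called the leading gene of a cell when it held at least 2 UMIs and more than 50% of the cell's Igkv UMIs. By this rule 58 genes led 243 kept cells, of which 59 were plasma cells, 13 B-1-like, 1 marginal zone, 10 transitional and 70 follicular, and no T cell. Because the B cell gates then held so few cells, shares were also taken over cells led at 1 UMI or more, which were 61 plasma, 46 B-1-like, 17 marginal zone, 53 transitional and 314 follicular cells. At 1 UMI 11 T cells were led as well, so the background is part of this second count.

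In plasma cells the UMIs of a cell came largely from a single gene. Of the 59 led plasma cells, 33 had all their Igkv UMIs from 1 gene and 46 had at least 90% from it; the lowest leading share was 51%. Led cells held 2 to 279 Igkv UMIs with a median of 33. The cell with the most carried 10.1% of all plasma Igkv UMIs and the 10 highest cells carried 48.5%, so summed UMIs describe a few cells. The other 9 plasma cells had no leading gene, and 6 of them had no Igkv UMI; in 5 of those 6 lambda exceeded kappa.

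**Figure D2:**
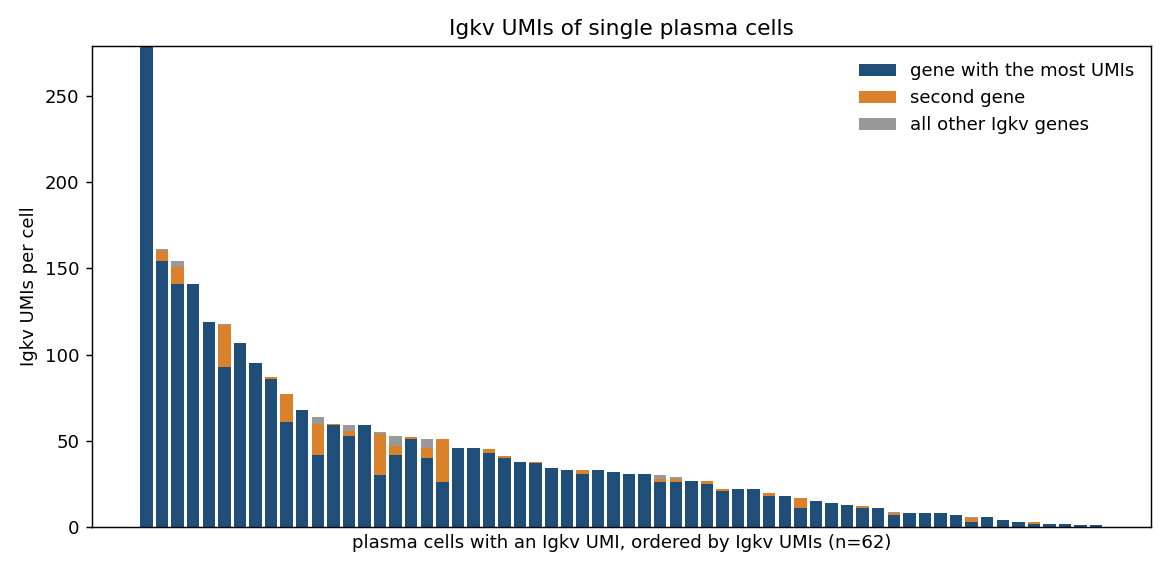
Igkv UMIs of each of the 62 plasma cells with an Igkv UMI (y axis, UMIs per cell; x axis, cells ordered by their Igkv UMIs), split into the gene with the most UMIs, the next gene and all others. The highest cell held 279 UMIs of 1 gene, and most bars are of a single colour.

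Plasma cells used many genes, each in few cells. The 59 led cells had 35 leading genes, of which 22 led 1 cell and 13 led 2 or more. Igkv1-135 was the most frequent and led 7 cells (11.9%, 4.91 to 22.9), with 141, 107, 93, 68, 40, 33 and 2 UMIs. Igkv6-15 led 4 cells, with 59, 31, 21 and 18 UMIs, and Igkv1-110, Igkv6-17, Igkv10-96 and Igkv14-111 led 3 each. Igkv12-46 led only 2 cells but with 279 and 141 UMIs, which made it 15.3% of plasma Igkv UMIs. Among all 1711 pairs of led plasma cells, 46 (2.69%) shared their leading gene, which corresponds to 37.2 equally used genes.

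The share of summed UMIs of Igkv1-135 was 17.5% in plasma cells (484 UMIs, 16.1 to 19.0) and 4.33% in follicular cells (20 UMIs), a ratio of 4.05 (2.6 to 6.7). By cells led at 1 UMI or more it was 7 of 61 plasma cells (11.5%) and 15 of 314 follicular cells (4.78%), a ratio of 2.4 with an interval of 0.829 to 6.26 that included 1. Igkv12-46 had 421 UMIs in the plasma gate, against 9 in the follicular gate, a ratio of shares of 7.84 (4.09 to 17.3), yet led 2 of 61 plasma cells, against 5 of 314 follicular cells (ratio 2.06, 0.196 to 12.6). Its relative Igkv12-44 held 6.06% of UMIs in both gates, with 167 plasma and 28 follicular UMIs (ratio 0.999, 0.667 to 1.55). Weighting by UMIs and weighting by cells thus gave different sizes for the same genes.

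The ratio was ranked over the 31 genes with at least 20 UMIs in both gates together, a minimum that a gene with many plasma UMIs meets and that Igkv1-117, with 2 plasma and 17 follicular UMIs, did not, so no count of ratios above or below 1 is read. The highest were Igkv4-57-1, Igkv1-88 and Igkv12-46. Igkv4-57-1 had 52 UMIs in 2 plasma cells and none of the 462 follicular UMIs, a count of 0 that allows a share of up to 0.649%, against 1.89% in plasma cells; the lower limit of the ratio was 2.28. Igkv1-88 had 51 UMIs in 1 plasma cell, against 1 follicular UMI (ratio 8.54, 1.47 to 344). The lowest were Igkv8-24 with 8 plasma UMIs, against 12 follicular UMIs (ratio 0.112, 0.0396 to 0.297), Igkv16-104 with 31, against 23 (0.226, 0.127 to 0.405), and Igkv17-127 with 59, against 18 (0.549, 0.319 to 0.989). Each of these 3 genes led 1 plasma cell, and all the plasma UMIs of each came from that cell. By cells, Igkv16-104 led 1 of 61 plasma cells, against 12 of 314 follicular cells (ratio 0.429, 0.01 to 2.9).

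Heavy-chain genes were set beside the kappa genes in the 56 plasma cells that had both a leading Igkv and a leading Ighv (heavy-chain variable) gene. These made 52 distinct combinations. Among the 1540 pairs of such cells, 38 shared the Igkv gene, 38 shared the Ighv gene and 5 shared both. The shared combinations were 3 and held 7 cells. Igkv1-135 with Ighv1-9 was found in 3 cells, whose most abundant heavy constant genes were Ighm, Ighg2b and Ighg2c. Igkv6-15 with Ighv1-15 was found in 2 cells, both of Igha, and Igkv6-15 with Ighv5-9-1 in 2 cells, 1 of Igha and 1 of Ighg2c. Every plasma cell led by Igkv6-15 thus shared its combination with another. Whether such cells descend from 1 clone cannot be read from gene names alone, and which mouse each came from is not known.

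**Figure D3:**
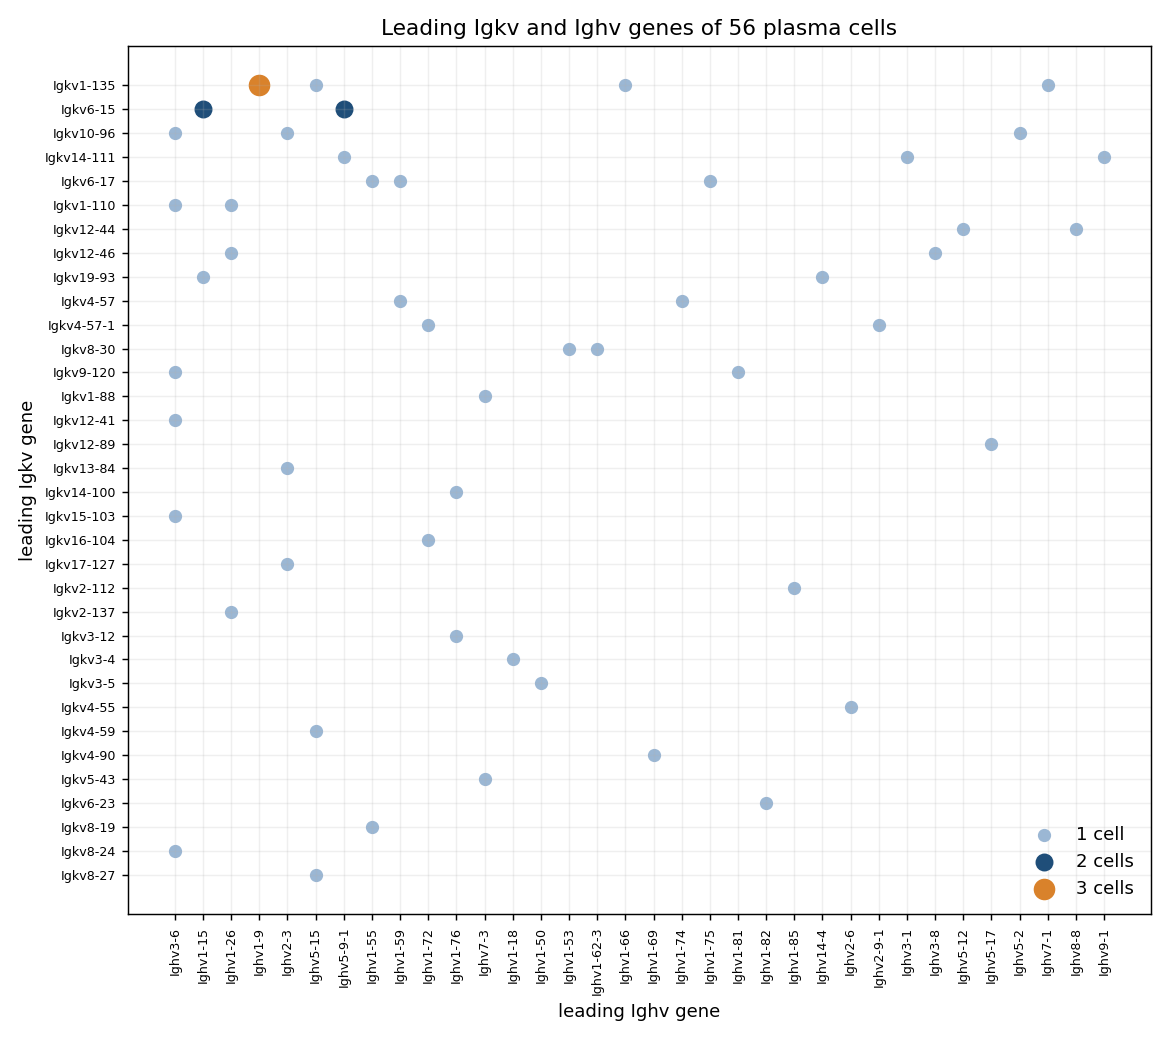
Leading Igkv gene (y axis) and leading Ighv gene (x axis) of 56 plasma cells; each point is a combination, and its size and colour give the number of cells. 3 combinations were seen in more than 1 cell, with 3, 2 and 2 cells.

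Ighv3-6 led 7 plasma cells, of which 1 had no leading Igkv gene and the other 6 each had a different one. Igkv1-135 occurred with 4 different Ighv genes, in 4 cells of Ighm and 1 each of Igha, Ighg2b and Ighg2c. Over the 68 plasma cells, the most abundant heavy constant gene was Igha in 27, Ighm in 20, Ighg2c in 14, Ighg2b in 4, Ighg3 in 2 and Ighg1 in 1. Both cells led by Igkv12-46 were of Igha.

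A number of plasma cells held transcripts of a second Igkv gene. It reached at least 2 UMIs and 10% of the cell's Igkv UMIs in 9 of 68 cells (13.2%, 6.23 to 23.6). These cells are described here after their values were seen. The most even held 26 UMIs of Igkv4-57-1 and 25 of Igkv10-96, which are 66.1% identical. Others held 30 of Igkv3-4 and 24 of Igkv8-16 (66.0%), 93 of Igkv1-135 and 24 of Igkv15-103 (62.9%), 42 of Igkv6-17 and 18 of Igkv3-1 (63.9%), and 61 of Igkv6-23 and 16 of Igkv4-55 (67.5%). The closest pair was Igkv8-19 with 11 UMIs and Igkv8-27 with 6, at 88.2% identity. Scrublet called none of the 9 cells a doublet, and the part of doublets in the second genes was otherwise not tested.

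Smaller second counts also occurred. In 27 plasma cells any second gene was seen. A cell with 141 UMIs of Igkv12-46 held 10 of its relative Igkv12-44 (6.49% of its Igkv UMIs). The pseudogene Igkv3-11 was a minor gene in 5 plasma cells with 8 UMIs in all and led none.

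In B cells the counts per cell were far lower, yet UMIs of a cell still tended to come from the same gene. Of the 732 B cells with an Igkv UMI, 514 had exactly 1. Of the 218 with 2 or more, 131 had all of them from 1 gene (60.1%, 53.3 to 66.6). Among the 169 cells with exactly 2 UMIs, 105 had both from the same gene (62.1%, 54.4 to 69.5), whereas 2.38% of pairs of different B cells shared their leading gene at 1 UMI or more. The remaining cells with UMIs of 2 or more genes were 87 (3.58% of B cells), and in 4 of the 2431 (0.165%, 0.0448 to 0.421) the second gene reached 2 UMIs and 10%. Those 4 cells held Igkv1-117 with Igkv10-94, Igkv1-117 with Igkv16-104, Igkv1-135 with Igkv12-41 and Igkv6-20 with Igkv8-19.

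Follicular cells, the largest gate, held UMIs of 76 Igkv genes, the most of the 5 gates, and their 70 led cells had 35 leading genes. Igkv12-44 led 5 cells (7.14%, 2.36 to 15.9), as did Igkv16-104 and Igkv19-93, and Igkv1-110, Igkv10-96 and Igkv6-15 led 4 each. By summed UMIs Igkv12-44 was highest with 28 of 462 (6.06%, 4.06 to 8.64). Of all pairs of led follicular cells 2.73% shared their gene, which corresponds to 36.6 equally used genes, against 37.2 for plasma cells. At 1 UMI or more the values were 38.9 in plasma and 45.7 in follicular cells.

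**Figure D4:**
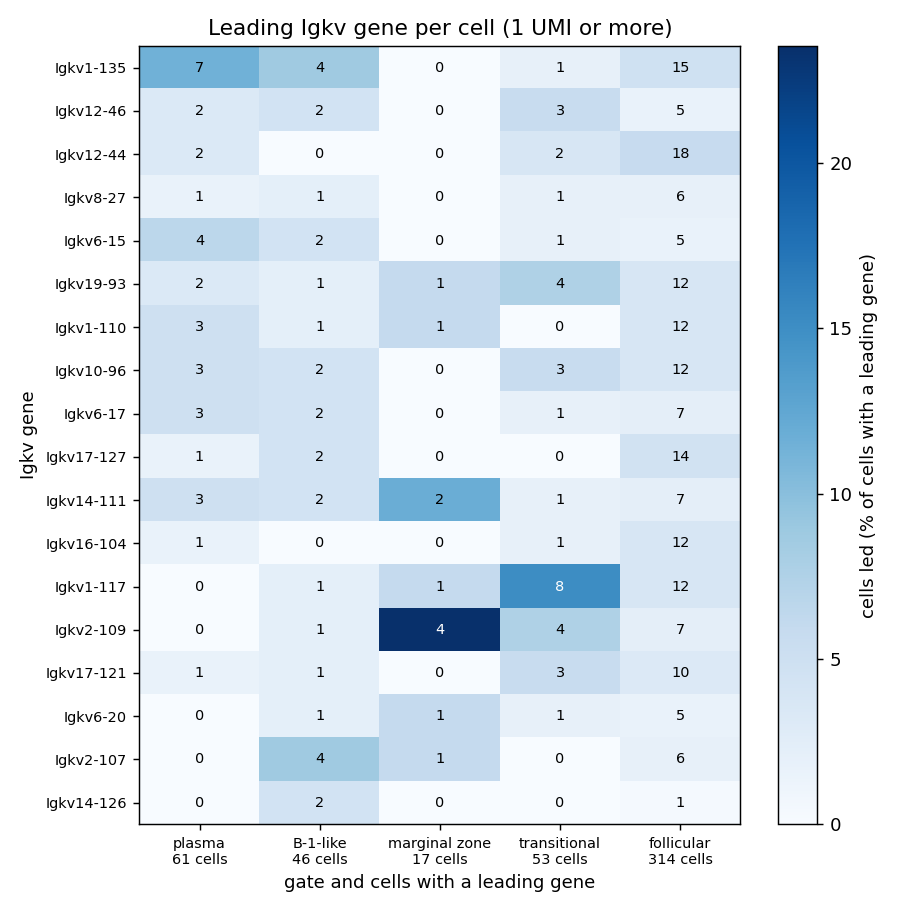
Cells led by each named Igkv gene at 1 UMI or more (numbers in the boxes) by gate (x axis, with the number of led cells); the colour gives the share of the gate's led cells (%). Igkv1-135 led 7 of 61 plasma cells, Igkv2-109 led 4 of 17 marginal zone cells and Igkv1-117 led 8 of 53 transitional cells.

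Igkv1-117 led the most transitional cells and was named for that, so its values in these cells are a description. The gene held 12 of 83 Igkv UMIs in the transitional gate (14.5%, 7.7 to 23.9) and 17 of 462 in the follicular gate (3.68%), a ratio of 3.93 (1.71 to 8.73). By cells led at 1 UMI or more it was 8 of 53 transitional cells (15.1%, 6.75 to 27.6) and 12 of 314 follicular cells (3.82%, 1.99 to 6.58), a ratio of 3.95 (1.4 to 10.5). At 2 UMIs or more it led 3 of 10 transitional cells (30.0%, 6.67 to 65.2) and 3 of 70 follicular cells. Igkv1-117 led 0 of 61 plasma cells, with an upper bound of 5.87% that includes the 3.82% of follicular cells (ratio 0, 0 to 1.85). Over all B cells it held 44 UMIs in 35 cells. Its near copy Igkv1-110 had 1 transitional UMI, against 21 follicular UMIs (ratio 0.265, 0.00641 to 1.65), an interval that included 1. Over 56 ratios of cell shares between a gate and the follicular gate, 2 intervals left out 1, those of Igkv1-117 in transitional and Igkv2-109 in marginal zone cells, with no adjustment for the number of ratios. Both genes were named from the cells of these gates, so the 2 intervals are no independent result.

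Other genes of the transitional gate had intervals that included 1. Igkv17-121 had 6 UMIs in transitional cells, against 15 in follicular cells (ratio of shares 2.23, 0.708 to 6.07). Igkv19-93 had 7, against 22 (1.77, 0.639 to 4.29), Igkv12-44 had 5, against 28 (0.994, 0.3 to 2.61), and Igkv1-135 had 1, against 20 (0.278, 0.00671 to 1.74). Genes of receptor assembly were measured beside them. All 7 such genes outside the joining segments were highest in CPM in the transitional gate. The recombinase gene Rag1 had 27 UMIs (26.5 CPM), against 1 (0.146 CPM) in follicular cells. Dntt, the enzyme that adds bases at the junctions, had 23 UMIs, against 1. Rag2 held only 6 transitional UMIs, Igll1 5, Vpreb1 3 and Vpreb2 3, and Vpreb1 held 4 in the larger follicular gate. No share over all symbols is given beside the 7, so nothing is read from that count. Vpreb3, part of the early B cell receptor complex, stood at 654 CPM in transitional cells, against 315 CPM in follicular cells. It was already among the transitional markers of the gate check. The part of these levels in the Igkv shares was not tested.

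In the marginal zone gate the data were thin, with 28 UMIs over 18 genes. A single cell was led at 2 UMIs, by Igkv6-20. By UMIs the highest gene, named for that, was Igkv2-109 (chr6:68302427-68303158, plus strand), with 6 UMIs in 6 cells (21.4%, 8.3 to 41.0). It led 4 of 17 cells at 1 UMI or more (23.5%, 6.81 to 49.9), against 7 of 314 follicular cells (2.23%, 0.901 to 4.54), a ratio of 10.6 (2.27 to 41.5). All 6 of these cells held only 1 UMI of the gene. Across all B cells Igkv2-109 had 32 UMIs in 30 cells, or 1.07 UMIs per cell with any, against a median of 1.25 over the 28 genes seen in at least 10 B cells. It ranked 5 from the lowest of these 28, and its neighbour Igkv2-107 ranked 4 with 1.05. In plasma cells Igkv2-109 had 3 UMIs in 1 cell and led none.

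No gene of the marginal zone gate had an interval of the UMI ratio that left out 1 among the 5 with at least 20 UMIs over both gates. Igkv1-110 had 2 UMIs, against 21 in follicular cells (ratio 1.57, 0.179 to 6.43), and Igkv19-93 had 1, against 22 (0.75, 0.0182 to 4.64). Igkv16-104 had 1, against 23 (0.717, 0.0174 to 4.42). Igkv12-44 and Igkv1-135 were at 0 of 28 UMIs, a count that allows a share of up to 10.7%, above their follicular shares of 6.06% and 4.33%. A lower use of these genes was therefore not detectable at this depth.

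B-1-like cells used 38 genes, and their 13 led cells had 12 leading genes. Igkv14-111 was the only gene to lead more than 1 of them, with 2 cells (15.4%, 1.92 to 45.4), and Igkv6-20 had the most UMIs with 7 of 80 (8.75%) in 2 cells. At 1 UMI or more Igkv1-135 and the pseudogene Igkv2-107 led 4 of 46 cells each. For Igkv2-107 (chr6:68326098-68326752, plus strand) this was 8.7% (2.42 to 20.8), against 6 of 314 follicular cells (1.91%, 0.704 to 4.11), a ratio of 4.55 whose interval of 0.945 to 19.2 included 1. Igkv12-44, the top follicular gene, had 0 of 80 UMIs in B-1-like cells, a count that allows a share of up to 3.75%, against 6.06% in follicular cells, and the upper limit of the ratio was 0.813. By cells it led 0 of 46 B-1-like cells, with an upper bound of 7.71%, which includes the 5.73% of follicular cells. Igkv16-104 was also at 0 UMIs, against 23 in follicular cells, with an upper limit of the ratio of 1. Igkv12-44 and Igkv16-104 met the minimum of 20 UMIs over both gates through their follicular UMIs alone. Nothing is therefore read from their upper limits. Igkv1-135 (ratio 1.16, 0.287 to 3.45), Igkv1-110 (1.1, 0.275 to 3.26), Igkv1-117 (1.02, 0.191 to 3.52) and Igkv19-93 (0.525, 0.0598 to 2.14) had intervals that included 1.

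Igkv14-126 and Igkv4-91 are known from mouse B-1 cell antibodies to phosphatidylcholine, where they pair with Ighv11-2 and Ighv12-3. Igkv14-126 had 10 UMIs in 8 kept cells, with 3 UMIs in 2 B-1-like cells and 1 UMI in 1 follicular cell, and none in plasma, marginal zone or transitional cells. It led 1 of 13 B-1-like cells at 2 UMIs or more (7.69%, 0.195 to 36.0). At 1 UMI or more it led 2 of 46 B-1-like cells (4.35%, 0.531 to 14.8), against 1 of 314 follicular cells (0.318%, 0.00806 to 1.76), a ratio of 13.7 with an interval of 0.711 to 805 that included 1. Igkv4-91 had 1 UMI in 1 B-1-like cell and 4 UMIs in 3 follicular cells. Ighv11-2 had 4 UMIs in 4 cells, of which 2 were B-1-like and none follicular, and 1 of the 4 also held Igkv14-126; that cell was a B cell with no subset marker. Ighv12-3 had 2 UMIs in 2 cells, 1 of them B-1-like. A preference of B-1-like cells for these genes was not detectable with so few UMIs.

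Position in the locus gave overlapping intervals between each other gate and the follicular gate. Genes on the strand of Igkc led 29 of 61 plasma cells (47.5%, 34.6 to 60.7), 60.9% of B-1-like, 70.6% of marginal zone, 43.4% of transitional and 52.9% of follicular cells (47.2 to 58.5). Genes over 2 Mb from Igkc led 41.0% of plasma, 54.3% of B-1-like, 64.7% of marginal zone, 43.4% of transitional and 43.6% of follicular cells. Genes between 1 and 2 Mb, which number 57 of the 160, led 19.7% of plasma, 8.7% of B-1-like, 5.88% of marginal zone, 20.8% of transitional and 15.9% of follicular cells. This stretch led the smallest share of cells in each gate. It holds 31 variable genes and 26 pseudogenes, against 40 and 10 under 1 Mb and 29 and 24 over 2 Mb. Igkv1-135, near the far end, led 38 B cells at 1 UMI or more, and Igkv12-44, under 1 Mb from Igkc, led 37.

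**Figure D5:**
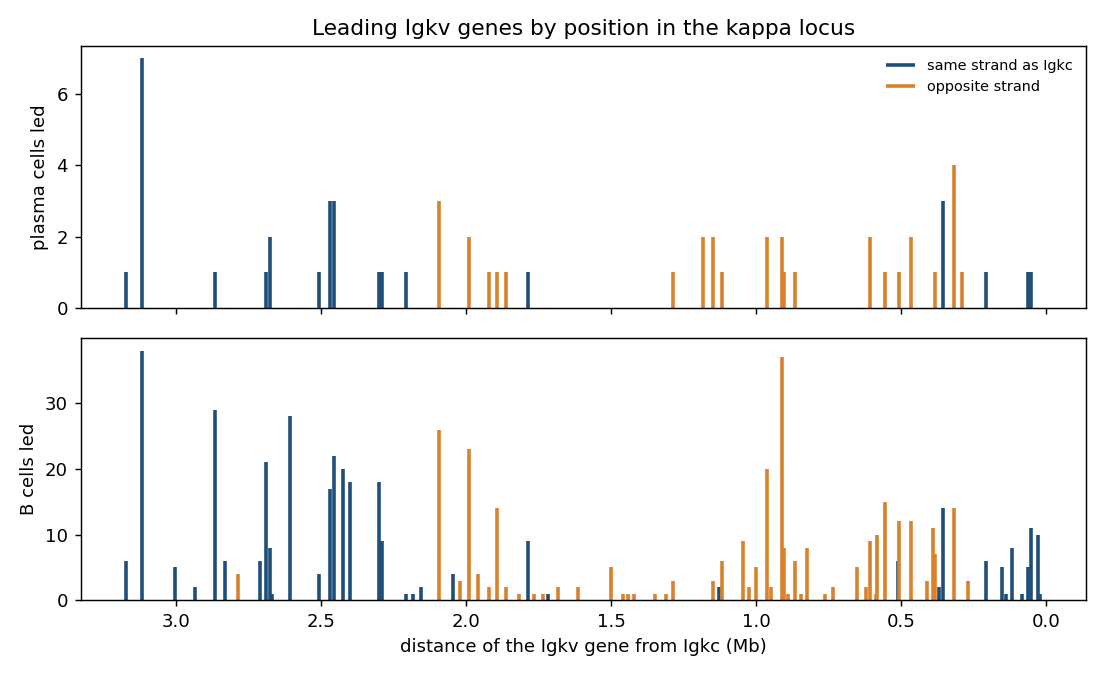
Cells led by each Igkv gene at 1 UMI or more (y axis; plasma cells above, all B cells below) by the distance of the gene from Igkc (x axis, Mb); colour gives the strand relative to Igkc. Genes between 1 and 2 Mb led 19.7% of plasma cells and 14.7% of B cells.

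By gene family, family 1 led 18.0% of plasma and 15.3% of follicular cells, and family 6 led 16.4% of plasma cells (8.15 to 28.1) and 11.5% of follicular cells. Family 12 held 24.5% of plasma UMIs but led 9.84% of plasma cells, against 11.3% of UMIs and 10.5% of cells in the follicular gate. Family 4, the largest with 33 genes, led 11.5% of plasma cells and 7.64% of follicular cells. Family 2, which includes Igkv2-109 and Igkv2-107, led 5 of 17 marginal zone cells (29.4%, 10.3 to 56.0), against 19 of 314 follicular cells (6.05%, 3.68 to 9.29). Of these 5 marginal zone cells, 4 were led by Igkv2-109, which was named from this same gate. The family share is therefore no independent result. Pseudogenes led 0 of 61 plasma cells (upper bound 5.87%), 6 of 46 B-1-like cells (13%, 4.94 to 26.3), 1 of 17 marginal zone cells, 1 of 53 transitional cells and 11 of 314 follicular cells (3.5%, 1.76 to 6.18). The B-1-like interval overlapped the follicular interval.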

How the data were processed

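Spleen cells of 2 labelled samples (1 WAS-KO, 1 WT) were profiled with droplet 3′ libraries. The authors deposited raw UMI counts for each gene in each barcode, with reads mapped to mm10 (3.0.0) per the labels' protocols. The counting program is not given in the sources used here. In all, the 7524 barcodes held 46882070 UMIs. Barcodes under 200 genes (101) or over 10% mt- UMIs (857) were removed, 936 in all. Scrublet (scanpy 1.11.5) called 137 of the 6588 kept barcodes (2.08%); they were kept, and left out as an alternative. Gates used raw UMIs. Shares carry exact Clopper-Pearson intervals and ratios of shares exact conditional binomial intervals (scipy 1.17.1), at 95%; the ratio step was tested on simulated data. With 1 pooled sample there is no replicate, no test and no p-value. A count of 0 was taken to allow 3. Thinned shares are expected values. Identity was measured by edit alignment (edlib 1.3.9.post1) of whole GENCODE vM21 transcripts, end gaps left out, and also of the coding part for the printed pairs.

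Named were the 10 genes with the most kept UMIs, in each gate the 5 that led the most cells (ties by UMIs), the 3 highest and 3 lowest ratios to the follicular gate among genes with 20 UMIs over both, and Igkv14-126 and Igkv4-91. Members, gates and lists were chosen with earlier results of these data known. Alternatives were other mitochondrial maxima, marker minima, leading-gene minima and Jchain minima, and the removal of doublets.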

Additional observations from a re-analysis of the deposited data

How the results depend on the processing

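Over 10 results and 49 alternatives, 39 values stayed within the interval of the reported value and 10 moved outside it. The 49 include the alternatives added after the data were seen. Several intervals were wide, such as 2.5 to 100 for marginal zone cells and 1.92 to 45.4 for B-1-like cells. Removing doublets took out no plasma cell. The 39 are therefore no measure of how stable the results were. Of the 32 alternatives with a top gene to name, 24 kept the same gene. Igkv1-135 led the plasma UMIs and the plasma cells under each alternative run, and its UMI share was 19.5% without the plasma cell with the most Igkv UMIs. With a mitochondrial maximum of 5%, only 246 B cells remained: the top transitional share was 100% (1 of 1 cell), the top follicular share 20% (1 of 5, Igkv17-127), and B cells with 2 genes were 0%. With a leading gene at 5 UMIs, the top B-1-like share was 100% (1 of 1, Igkv6-20), the top transitional share 100% (1 of 1, Igkv16-104) and the Igkv14-126 share of B-1-like cells 0%. With subset markers at 2 UMIs, the top transitional share was 66.7% (2 of 3) and the Igkv14-126 share 0%. With a second gene at 3 UMIs and 20%, B cells with 2 genes were 0%. The last of these kept the same 2431 cells and asks more of the second gene; the others leave fewer led or gated cells. No cell was led, and no value given, for B-1-like cells at 5%, for marginal zone cells at 5%, at 5 UMIs or with markers at 2 UMIs, and for follicular cells at 5 UMIs. In alternatives added after the data were seen, Igkv1-117 led 14.8% (8 of 54) to 25% (2 of 8, 3.19 to 65.1) of transitional cells at 1 UMI or more. Igkv2-109 led 16.7% (2 of 12) to 25% (1 of 4, 0.631 to 80.6) of marginal zone cells by the same rule. Both genes were named from these same cells, and the range ends rest on few cells. No paired analysis was possible because the table pools its barcodes with no link to a sample. Depth limits every B cell gate, where most cells with an Igkv transcript held 1 UMI, and plasma UMI shares rest on few cells.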

Other observations

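Igkv counts were also found outside the B cell and plasma gates. The 4089 other kept cells held 336 Igkv UMIs in 251 cells, and 37 of them had a leading gene. All 37 held a UMI of a B cell marker and more than the allowed 2 UMIs of markers of other cell types. Outside both gates, any cell with at least 3 UMIs of B cell markers must exceed that limit. Nothing is therefore read from that count. Scrublet called 2 of the 37 doublets. The 936 removed barcodes held 56 Igkv UMIs.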
